A study of Homo sapiens with 20 samples.

Results

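The genes described here are 49 human genes whose products copy DNA: the origin recognition complex, the licensing factors, the MCM helicase and its activators, the replicative polymerases, the clamp and its loader, single-strand binding protein, lagging-strand enzymes, and the enzymes that supply deoxynucleotides. They were taken by symbol from the RNAseq values. All 49 were found among 28051 named genes, and all 49 were among the 13256 genes tested, those whose mean log2 value passed 3 in some group. HL60 is an established human acute myeloid leukemia (AML) cell line with the features of promyelocytes, and all-trans retinoic acid (ATRA) makes it mature towards neutrophils. Cas9-expressing control cells and HK3-null cells, in which CRISPR had been aimed at the hexokinase gene HK3, were each kept for 36 h in 1 µM ATRA or in 0.01% DMSO, with 3 libraries in each of the 4 groups. Both kinds of cells carry the Cas9 vector. The study describes its knockout lines as grown from single clones, and every HK3-null library has the same knockout label, so an effect of losing HK3 cannot be told apart from a difference between clones, and the p-values speak for the spread between these cultures.

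The 12 libraries held an estimated 22700000 to 37000000 counts. HK3 itself gave 90, 65 and 105 normalized counts in Cas9 control DMSO libraries and 344, 302 and 346 in HK3-null DMSO libraries, and 1305, 1298 and 1850 against 1384, 1285 and 1975 in ATRA. HK3 RNA was thus not lower under the HK3-null label in either treatment. An insertion or deletion at the cut site need not lower the RNA, so these counts do not check the label, and HK3-null below means the libraries so labelled. The study reports that it verified its knockout clones by DNA sequencing and by mass spectrometry. MPO, the myeloperoxidase of promyelocytes, lay between 440811 and 661371 in every library. Of 11 promyelocyte markers, 2 passed as higher and 6 as lower in ATRA in each genotype, and 6 were higher and 2 lower in HK3-null cells in DMSO, and 5 higher and 2 lower in ATRA. CD38, a retinoid-induced gene, went from 4 to 6 counts in DMSO to 5181 to 6157 in ATRA in Cas9 control cells, and from 175 to 202 to between 6708 and 7982 in HK3-null cells. Of 13 markers of other cell types, 10 were above 0 in some library, and MS4A1 (B cells) and ALB (liver) were at 0 in all. Their summed level was 68 to 495 counts in Cas9 control DMSO, 166 to 247 in Cas9 control ATRA, 509 to 591 in HK3-null DMSO and 1274 to 1513 in HK3-null ATRA, and most of it was PECAM1 outside 1 library. That library, Cas9 control DMSO replicate 1, held 321 counts of the collagen gene COL1A1 against 7 to 33 elsewhere and 16750 genes above 0 against 15031 to 15801. Without PECAM1 the sums were 13 to 451, 21 to 79, 29 to 35 and 56 to 58 in the same order of groups. Counts of called members in ATRA in Cas9 control cells and between genotypes in DMSO are given with and without Cas9 control DMSO replicate 1. Other values include it unless stated. In bulk RNA, fewer cells in S phase and less RNA of a gene per cell cannot be told apart.

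Copying the genome once per cell cycle is split into steps. In G1, the origin recognition complex with CDC6 and CDT1 loads the ring-shaped MCM2-7 helicase onto origins, and geminin (GMNN) keeps CDT1 from doing so again later in the cycle. The kinase CDC7 with its activator DBF4, followed by CDC45 and the GINS complex, turns the loaded rings into working helicases. Polymerase alpha with primase then starts each new strand, polymerases delta and epsilon extend it on the PCNA clamp that replication factor C loads, RPA covers the exposed single strand, and FEN1 and LIG1 finish the lagging strand. Many of these genes are targets of E2F transcription factors and are transcribed most around the start of S phase. Terminal maturation of myeloid cells ends with exit from the cell cycle.

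Promoters are shown for 8 members. The members with the 4 largest called changes in ATRA in each genotype were TK1, RRM2, PRIM1, POLD2, CDC45 and ORC3, and the other two, MCM6 and PCNA, hold E2F motifs and passed in no comparison without a replicate block. Each line gives the 250 bases before the start listed for that gene's promoter, 5′ to 3′ on the gene's strand, from RefSeq on GRCh38.p14. For CDC45 and POLD2 the whole window lies inside the annotated span of the gene, and for RRM2 most of it does. Capitals mark a match to an E2F motif (TTTCCCGC, TTTGGCGC, TTTCGCGC or TTTGCCGC) or to CCAAT on either strand.
TK1 (chr17:78187205-78187454, minus strand): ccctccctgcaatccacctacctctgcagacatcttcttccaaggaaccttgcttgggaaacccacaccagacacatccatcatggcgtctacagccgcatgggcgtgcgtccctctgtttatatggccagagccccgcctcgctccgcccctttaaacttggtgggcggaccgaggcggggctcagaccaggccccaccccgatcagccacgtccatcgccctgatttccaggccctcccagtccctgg
RRM2 (chr2:10122489-10122738, plus strand): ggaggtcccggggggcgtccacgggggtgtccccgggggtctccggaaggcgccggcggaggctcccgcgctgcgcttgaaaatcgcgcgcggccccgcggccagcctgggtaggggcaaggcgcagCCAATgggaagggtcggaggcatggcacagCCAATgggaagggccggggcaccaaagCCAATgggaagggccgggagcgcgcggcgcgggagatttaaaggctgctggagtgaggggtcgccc
PRIM1 (chr12:56752324-56752573, minus strand): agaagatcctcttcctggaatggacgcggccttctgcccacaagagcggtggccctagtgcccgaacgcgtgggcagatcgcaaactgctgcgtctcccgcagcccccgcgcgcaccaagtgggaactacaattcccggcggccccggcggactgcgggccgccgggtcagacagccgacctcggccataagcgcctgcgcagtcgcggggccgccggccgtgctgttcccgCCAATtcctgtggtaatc
POLD2 (chr7:44123549-44123798, minus strand): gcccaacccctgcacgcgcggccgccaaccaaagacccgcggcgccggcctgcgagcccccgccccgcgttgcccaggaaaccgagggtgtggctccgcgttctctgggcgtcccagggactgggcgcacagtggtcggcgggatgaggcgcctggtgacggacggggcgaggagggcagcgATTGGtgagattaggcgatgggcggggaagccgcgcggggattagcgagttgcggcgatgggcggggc
CDC45 (chr22:19479670-19479919, plus strand): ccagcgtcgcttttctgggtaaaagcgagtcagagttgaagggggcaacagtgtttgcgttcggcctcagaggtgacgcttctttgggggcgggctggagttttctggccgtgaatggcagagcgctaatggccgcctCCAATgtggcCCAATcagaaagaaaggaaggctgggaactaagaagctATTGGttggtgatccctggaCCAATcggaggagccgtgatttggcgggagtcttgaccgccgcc
ORC3 (chr6:87589885-87590134, plus strand): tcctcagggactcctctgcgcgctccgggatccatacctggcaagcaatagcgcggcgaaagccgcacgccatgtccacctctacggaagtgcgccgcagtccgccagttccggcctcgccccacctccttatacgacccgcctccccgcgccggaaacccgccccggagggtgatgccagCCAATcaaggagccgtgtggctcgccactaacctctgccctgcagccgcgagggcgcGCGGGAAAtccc
MCM6 (chr2:135876444-135876693, minus strand): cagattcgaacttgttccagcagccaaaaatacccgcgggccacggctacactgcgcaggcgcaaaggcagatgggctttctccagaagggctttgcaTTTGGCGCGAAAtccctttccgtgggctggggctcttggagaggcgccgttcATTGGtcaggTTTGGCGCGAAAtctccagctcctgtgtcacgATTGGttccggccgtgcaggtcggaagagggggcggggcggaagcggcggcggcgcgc
PCNA (chr20:5126623-5126872, minus strand): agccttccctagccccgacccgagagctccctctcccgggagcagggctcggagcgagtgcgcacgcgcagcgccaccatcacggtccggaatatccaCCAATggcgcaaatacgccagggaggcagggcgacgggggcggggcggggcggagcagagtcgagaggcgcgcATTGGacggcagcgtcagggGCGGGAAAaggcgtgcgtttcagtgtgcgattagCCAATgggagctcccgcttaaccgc
Promoters of 43 of the 49 members were in the RefSeq table, and GINS4, RPA2, RPA3, MCM5, POLD3 and MCM4 were not matched. An E2F motif stood in 13 of the 43 windows of 250 bases (30.2%) and in 2.79% of the 27305 such windows of all genes. CCAAT stood in 23 of the 43 (53.5%), against 33.0% of all windows. The window of TK1 held neither motif, those of RRM2, PRIM1, POLD2 and CDC45 held CCAAT without an E2F match, that of ORC3 held both, and the E2F matches of MCM6 are pairs that overlap on opposite strands. A match is a description of letters and not of binding. In ATRA, none of the 13 members with an E2F match passed in Cas9 control cells and 2 of 13 passed in HK3-null cells, both lower. Of the 30 members without one, 4 were higher and 4 lower in Cas9 control cells, and 5 were higher and 5 lower in HK3-null cells. Of all tested genes, 20.3% were higher and 21.3% lower in Cas9 control cells and 24.0% and 25.1% in HK3-null cells. The medians were -0.06 and -0.07 (log2) for members with and without a match in Cas9 control cells and -0.08 and 0.00 in HK3-null cells, and the difference between them was not tested.

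Per kilobase of canonical transcript, the most abundant members in Cas9 control DMSO libraries were the clamp PCNA (11264 normalized counts per kb), thymidylate synthase TYMS (10181) and the helicase subunit MCM7 (9406). The lowest were ORC4 (125) and GINS4 (156). The subunits of MCM2-7 were not at 1 level, with MCM7 highest and MCM4 lowest at 2467 normalized counts per kb. In HK3-null DMSO libraries the level of MCM4 was 3681 normalized counts per kb and MCM5 was lowest of the 6, at 3011. The 49 members together took 0.799% ± 0.0169 (SD, n = 3) of all normalized counts in Cas9 control DMSO, 0.794% ± 0.0221 in Cas9 control ATRA, 0.763% ± 0.0250 in HK3-null DMSO and 0.754% ± 0.0226 in HK3-null ATRA. The shares in DMSO and ATRA overlapped within each genotype.

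**Figure D1:**
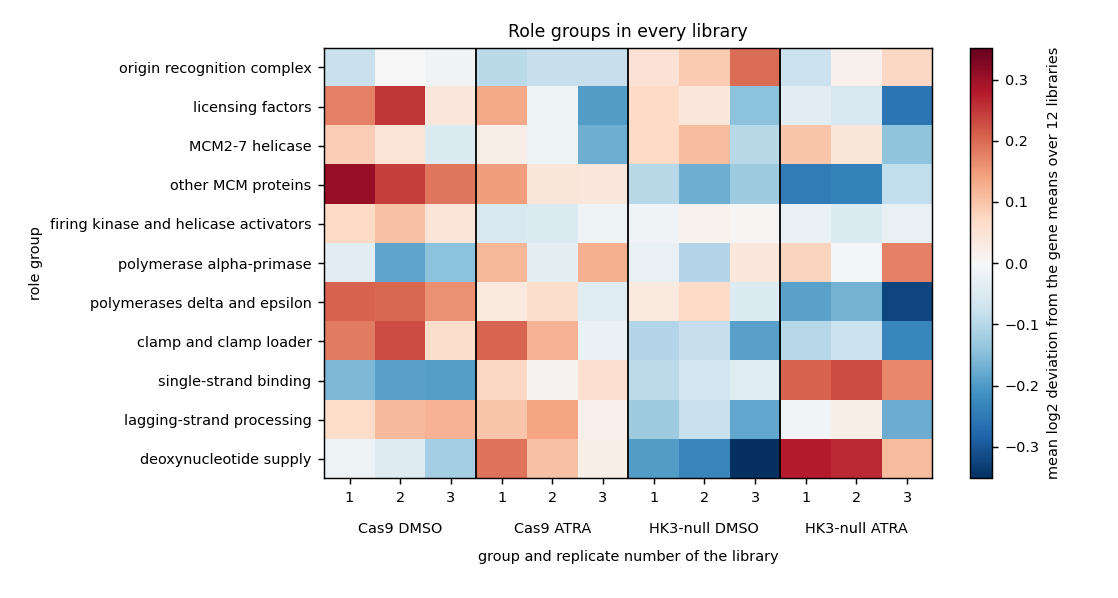
Each cell is the mean, over the members of a role group (rows), of the log2 deviation of a library (columns, replicates 1 to 3 of the 4 groups) from the gene's mean over the 12 libraries. Deoxynucleotide supply ran from -0.35 in an HK3-null DMSO library to 0.28 in an HK3-null ATRA library, and the single-strand binding genes were above 0 in all 6 ATRA libraries and below 0 in all 6 DMSO libraries.

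In ATRA, the differences of most replication genes from their DMSO level were small in both genotypes. TK1, RPA1, RPA2 and ORC1 were higher and POLD2, CDC45 and DBF4 lower in both. In Cas9 control cells 6 of 49 members passed as higher and 5 as lower at an adjusted p under 0.05 (limma, Benjamini-Hochberg over 13256 genes), while 20.3% of all tested genes were higher and 21.3% lower. In HK3-null cells 8 were higher and 7 lower, against 24.0% and 25.1% of tested genes. The median log2 change over the members was -0.07 in Cas9 control cells (0.03 under quantile normalization) and 0.00 in HK3-null cells, and the median size without regard to sign was 0.12 and 0.14, against 0.31 and 0.38 over all tested genes. The members that passed in both genotypes in the same direction were 7, which is 63.6% of the 11 and 46.7% of the 15, beside 76.6% and 64.9% over all genes, and none passed in opposite directions. The 2 comparisons share no library, but both come from 1 fit with 1 estimate of each gene's spread over all 12 libraries. With a fold change of at least 1.5 as well, only TK1 was higher in Cas9 control cells (11.2% of tested genes were higher and 7.79% lower), and TK1 and RRM2 were higher and POLD2 lower in HK3-null cells (13.6% and 12.9%). Replicate numbers were taken to pair the libraries. With the number as a block, 25 members passed in Cas9 control cells (9 higher, 16 lower) and 31 in HK3-null cells (16 higher, 15 lower). The share of all tested genes that passed with the block was 55.9% and 61.3%. The block added MCM5, POLA2 and PRIM2 as higher and ORC2, ORC6, CDC6, GMNN, MCM3, MCM4, MCM6, GINS2, POLE2, RFC2 and TYMS as lower in Cas9 control cells. In HK3-null cells it added GINS1, GINS3, POLA2, PRIM2, POLE, RFC5, RPA3 and TYMS as higher and ORC2, ORC4, MCM3, MCM4, MCM6, MCM10, POLD1 and RFC3 as lower. Statements below that a member did not pass are from the fit without the block. Under quantile normalization the split in Cas9 control cells was 10 higher and 5 lower, beside 19.3% and 22.1% of all tested genes. Without Cas9 control DMSO replicate 1, 9 members passed in Cas9 control cells, 5 higher and 4 lower. Of all 13256 tested genes, 4619 then passed, against 5508 with that library.

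**Figure D2:**
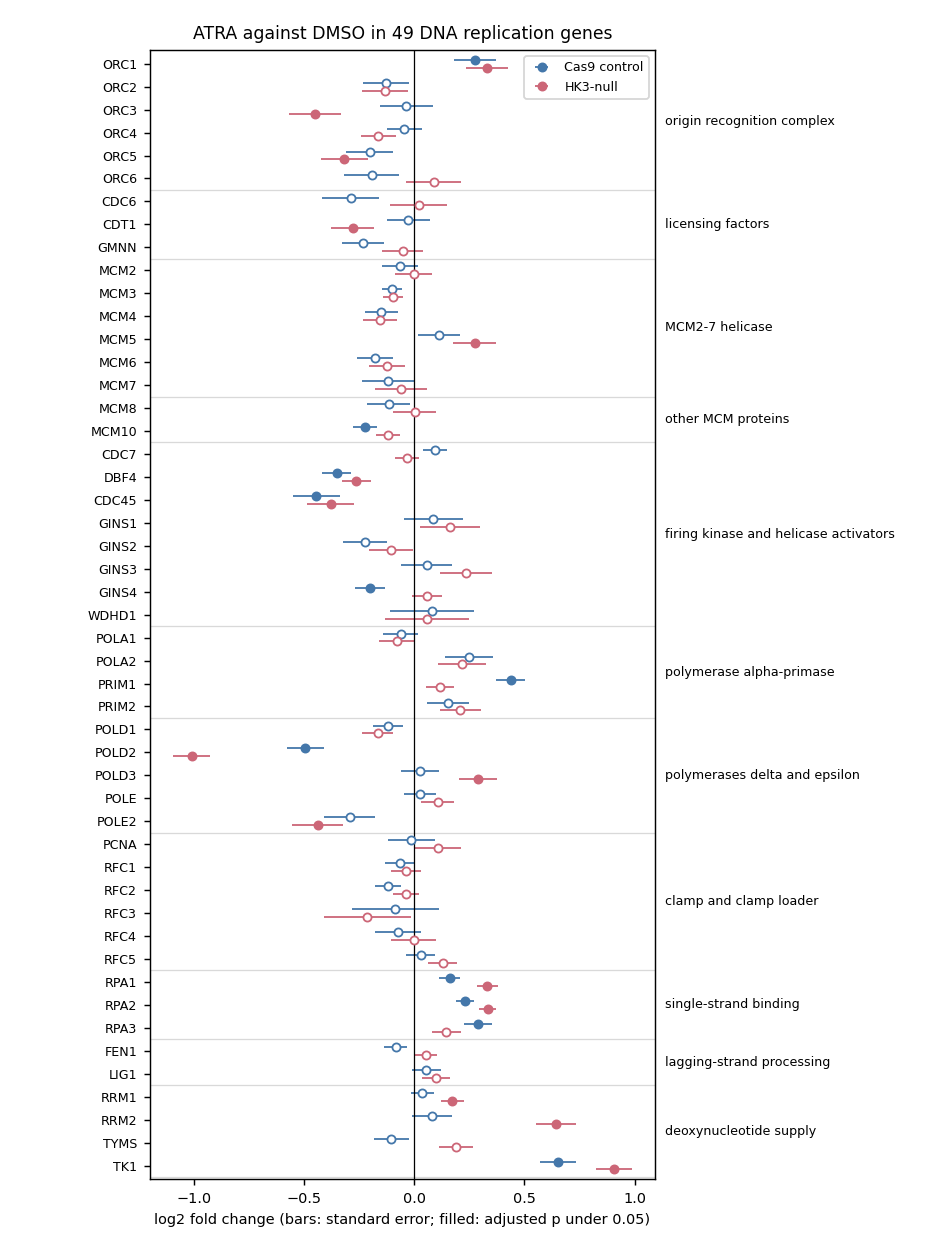
Log2 fold change of ATRA against DMSO (x axis) for each of the 49 members (rows, by role group) in Cas9 control (blue) and HK3-null cells (red), with standard errors and filled points where the adjusted p was under 0.05. TK1 lies farthest to the right in both genotypes and POLD2 farthest to the left.

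Deoxynucleotide supply held the largest rise. TK1, the thymidine kinase of the salvage pathway, gave 2499, 2474 and 2776 normalized counts in Cas9 control DMSO and 4093, 4160 and 3920 in ATRA. In HK3-null cells it gave 2821, 2739 and 2457 in DMSO and 5339, 5301 and 4433 in ATRA. Every ATRA library was above every DMSO library. TK1 rose by a log2 of 0.65 ± 0.08 (SE, 1.57-fold, limma adjusted p = 7.6e-05) in Cas9 control cells and 0.91 ± 0.08 (1.88-fold, adjusted p = 3.47e-06) in HK3-null cells. RRM2, the small subunit of ribonucleotide reductase, gave 8466, 8118 and 7013 in Cas9 control DMSO and 9258, 8016 and 7656 in ATRA, which overlap, and its change there was 0.08 ± 0.09 (log2). In HK3-null cells RRM2 gave 6822, 6327 and 5883 in DMSO and 10564, 9698 and 9438 in ATRA, with no overlap, and rose by 0.64 ± 0.09 (limma adjusted p = 0.000125). RRM1, the large subunit, passed in HK3-null cells at 0.17 ± 0.05 (log2), and TYMS, which makes thymidylate, passed in neither (-0.10 and 0.19 on the log2 scale). TYMS lies over ENOSF1 and TYMSOS in the annotation, and how reads in such overlaps were counted is not given in the sources used here.

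**Figure D3:**
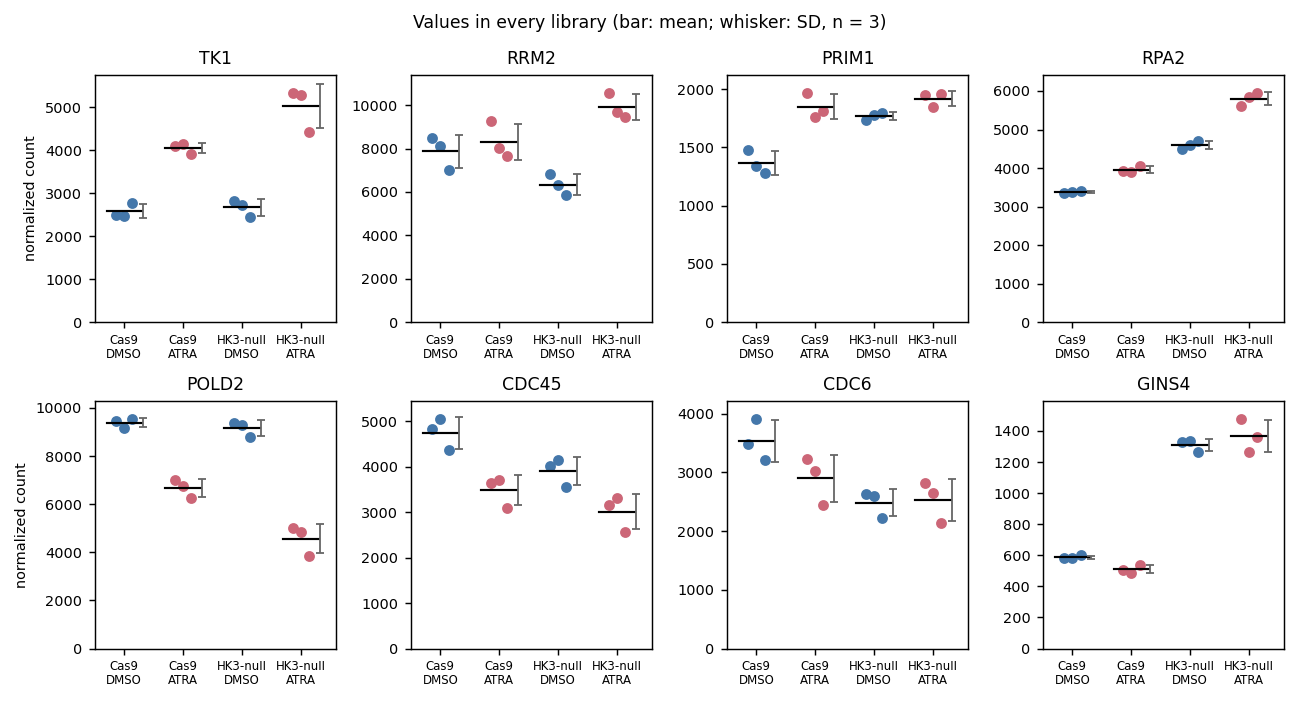
Normalized counts (y axis, from 0) of 8 members in each of the 12 libraries, with the mean (bar) and SD (whisker) of the 3 libraries in a group, blue for DMSO and red for ATRA. TK1 and RPA2 are higher in every ATRA library than in the DMSO libraries of the same genotype, POLD2 is lower in each, and GINS4 lies between 487 and 599 in Cas9 control and between 1267 and 1476 in HK3-null libraries.

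The 3 genes of RPA, the trimer that coats single-stranded DNA, all passed as higher in Cas9 control cells, and RPA1 and RPA2 did in HK3-null cells. RPA2 gave 3362, 3371 and 3399 in Cas9 control DMSO and 3934, 3897 and 4052 in ATRA. Its HK3-null values were 4498, 4607 and 4708 in DMSO and 5610, 5833 and 5951 in ATRA. The 4 groups of RPA2 values do not overlap at any point. RPA2 rose by 0.23 ± 0.04 (log2, limma adjusted p = 0.000885) and 0.33 ± 0.04 (adjusted p = 3.94e-05). RPA3 rose by 0.29 ± 0.06 in Cas9 control cells and its change was 0.14 ± 0.06 in HK3-null cells (adjusted p = 0.0865), while RPA1 passed at 0.16 ± 0.05 and 0.33 ± 0.05. RPA3 overlaps UMAD1 in the annotation.

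Polymerase alpha-primase had 1 member that passed. PRIM1, the catalytic subunit of primase, gave 1481, 1339 and 1276 in Cas9 control DMSO and 1967, 1764 and 1810 in ATRA, where it rose by 0.44 ± 0.06 (limma adjusted p = 0.000262). In HK3-null cells the values were 1733, 1781 and 1791 in DMSO and 1950, 1847 and 1957 in ATRA, a change of 0.12 ± 0.06 that did not pass (adjusted p = 0.158). The HK3-null DMSO libraries lay above all Cas9 control DMSO libraries. POLA1, POLA2 and PRIM2 did not pass in either genotype, with changes between -0.08 and 0.25 on the log2 scale.

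Polymerases delta and epsilon held the largest fall. POLD2, a regulatory subunit of polymerase delta, gave 9461, 9162 and 9530 in Cas9 control DMSO and 7009, 6738 and 6249 in ATRA. In HK3-null cells it gave 9382, 9307 and 8770 in DMSO and 5010, 4823 and 3862 in ATRA. The DMSO libraries of both genotypes overlapped, and the HK3-null ATRA libraries were the lowest of all 12. POLD2 fell by 0.49 ± 0.09 on the log2 scale in Cas9 control cells (limma adjusted p = 0.000795) and by 1.01 ± 0.09 in HK3-null cells (adjusted p = 2.25e-06). The catalytic subunit POLD1 was not past the threshold in either (-0.12 and -0.17, log2). POLE2, a subunit of polymerase epsilon, fell by 0.44 ± 0.12 in HK3-null cells, with -0.29 ± 0.12 in Cas9 control cells (adjusted p = 0.0604). POLD3 passed as higher in HK3-null cells, at 0.29 ± 0.09.

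Among the firing kinase and the helicase activators, CDC45 and DBF4 were lower in ATRA in both genotypes. CDC45, which completes the active helicase, gave 4832, 5048 and 4366 in Cas9 control DMSO and 3650, 3719 and 3104 in ATRA, and fell by 0.45 ± 0.11 on the log2 scale (limma adjusted p = 0.00571). Its HK3-null values were 4025, 4148 and 3548 in DMSO and 3156, 3307 and 2575 in ATRA, a fall of 0.38 ± 0.11 (adjusted p = 0.0113). DMSO and ATRA values did not overlap in either genotype. DBF4 fell by 0.35 ± 0.06 in Cas9 control and by 0.26 ± 0.06 in HK3-null cells, while its kinase partner CDC7 changed by 0.10 and -0.03 (log2) and did not pass. The GINS genes did not pass except GINS4 in Cas9 control cells, at -0.20 ± 0.07.

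Of the origin recognition and licensing genes, only ORC1 passed in ATRA in Cas9 control cells, and ORC1, ORC3, ORC5 and CDT1 passed in HK3-null cells. ORC3, an origin recognition subunit, gave 1179, 1138 and 1317 in Cas9 control DMSO and 1144, 1096 and 1307 in ATRA, with a change of -0.04 ± 0.12 (log2). In HK3-null cells it gave 1696, 1706 and 2066 in DMSO and 1206, 1225 and 1583 in ATRA, and fell by 0.45 ± 0.12 (limma adjusted p = 0.00857). The HK3-null DMSO libraries were above all others. ORC1, the largest subunit, passed as higher in both genotypes (0.28 ± 0.09 and 0.33 ± 0.09, log2). ORC5 fell by 0.32 ± 0.11 (limma adjusted p = 0.0274) and CDT1 by 0.28 ± 0.10 (adjusted p = 0.0316) in HK3-null cells. CDC6, which helps load the helicase, gave 3488, 3907 and 3208 in Cas9 control DMSO and 3232, 3020 and 2452 in ATRA, and 2640, 2601 and 2220 against 2817, 2647 and 2131 in HK3-null cells. These ranges overlap between treatments, and CDC6 passed in neither genotype (-0.29 and 0.02, log2).

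The 6 subunits of MCM2-7 did not pass in Cas9 control cells, with changes between -0.18 and 0.11 on the log2 scale, and only MCM5 passed in HK3-null cells, at 0.27 ± 0.10 (limma adjusted p = 0.0359). With the replicate block, MCM3, MCM4 and MCM6 passed as lower and MCM5 as higher in both genotypes, with adjusted p from 0.00109 to 0.0393 in Cas9 control and from 0.000187 to 0.0199 in HK3-null cells. MCM5 gave 13387, 12496 and 11807 in Cas9 control DMSO and 14387, 13872 and 12493 in ATRA. In HK3-null cells it gave 10939, 11168 and 9130 in DMSO and 13669, 12981 and 11104 in ATRA, where 1 ATRA library lay within the DMSO range. MCM10, which helps to start the helicase, gave 1036, 1038 and 1040 in Cas9 control DMSO and 891, 921 and 853 in ATRA, and fell by 0.23 ± 0.05 (adjusted p = 0.00637). Its HK3-null values, 863, 870 and 889 in DMSO and 771, 829 and 816 in ATRA, gave -0.12 ± 0.05 (adjusted p = 0.0942).

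The clamp, its loader and the lagging-strand enzymes gave no member past the threshold in ATRA in either genotype without the block. RFC3, a clamp loader subunit, had the largest change of its group, with 5517, 5856 and 4360 in Cas9 control DMSO and 5891, 5216 and 3833 in ATRA, and 3855, 3889 and 2841 against 3471, 3328 and 2365 in HK3-null cells. Its treatments overlapped in both genotypes, and replicate 3 was lowest in all 4 groups. LIG1, the ligase that joins Okazaki fragments, gave 5074, 5268 and 5395 in Cas9 control DMSO and 5385, 5724 and 5236 in ATRA, and 5104, 5368 and 4810 against 5589, 5805 and 4979 in HK3-null cells, and these overlapped too. The clamp PCNA, with changes of -0.01 ± 0.11 and 0.11 ± 0.11 (log2), had 95% intervals of the change from -0.25 to 0.22 and from -0.13 to 0.34.

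The calls that were kept with each of the 12 libraries left out in turn were 4 higher (TK1, PRIM1, RPA2, RPA3) and 4 lower (POLD2, CDC45, DBF4, MCM10) in Cas9 control cells, and 4 higher (TK1, RRM2, RPA1, RPA2) and 5 lower (POLD2, POLE2, ORC3, CDC45, DBF4) in HK3-null cells. The remaining 3 in Cas9 control cells (ORC1, RPA1, GINS4) and 6 in HK3-null cells (ORC1, ORC5, CDT1, MCM5, POLD3, RRM1) were each lost without some library, with adjusted p up to 0.123 and 0.142, and each of the 6 libraries compared cost at least 1 of them.

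Whether the ATRA change differed between genotypes was tested as an interaction, which compares the HK3-null change with the Cas9 control change. It was higher for 1 of 49 members and lower for 1, against 4.48% and 4.64% of tested genes, and with a difference of at least 1.5-fold as well it was higher for 0 and lower for 0, against 2.47% and 2.83%. RRM2 differed by 0.56 ± 0.13 (log2, limma adjusted p = 0.0186), with the values given above, and was kept with every library left out. POLD2 differed by -0.52 ± 0.12 (adjusted p = 0.0213). It was not past the threshold without Cas9 control ATRA replicate 1 or 2, Cas9 control DMSO replicate 2, or HK3-null DMSO replicate 1 or 2, where the adjusted p reached 0.0563 at most. PRIM1 lay just outside, at -0.32 ± 0.09 (adjusted p = 0.0524). With the replicate number as a block, 10 members passed, 6 higher (CDC6, RPA1, RRM2, TYMS, POLD3, GINS4) and 4 lower (POLD2, PRIM1, ORC3, CDT1), beside 21.9% of all tested genes. With chromosome medians subtracted the split was 1 higher and 2 lower, beside 605 and 593 of all 13256 tested genes.

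Between genotypes, more replication genes differed than between treatments, and the same held for all tested genes. The differences went in both directions and were small for most members, though not for GINS4. GINS4, MCM4, PRIM2 and RPA2 were higher in HK3-null cells in both treatments (relative to their chromosomes MCM4 and PRIM2 in neither, and GINS4 in ATRA alone), and GINS3, MCM8, FEN1, RFC2, MCM2, POLD1 and CDC7 were lower. In DMSO 8 members were higher and 18 lower, against 27.9% and 27.1% of tested genes, and the median over the members was -0.10 on the log2 scale. In ATRA 9 were higher and 14 lower, against 29.6% and 29.5%, with a median of -0.11. Without regard to sign the medians were 0.24 and 0.22, against 0.42 and 0.48 over all tested genes. The same direction was passed in both treatments by 18 members, 69.2% of the 26 and 78.3% of the 23, beside 80.3% and 74.6% over all genes, and RRM2 alone passed in opposite directions. With a fold change of at least 1.5 as well, GINS4 and ORC3 were higher and GINS3 lower in DMSO (17.4% and 14.7% of tested genes), and GINS4 was higher and RFC3 lower in ATRA (18.8% and 17.6%). The 2 comparisons share no library, but both rest on the same estimate of each gene's spread over all 12 libraries. With the replicate number as a block 34 members passed in DMSO (9 higher, 25 lower) and 36 in ATRA (12 higher, 24 lower), beside 66.7% and 70.2% of all tested genes. The block added ORC4 as higher and ORC1, GINS1, POLA2, PCNA, RFC5, RPA1 and RRM1 as lower in DMSO. In ATRA it added ORC3, ORC6 and POLE as higher and CDC6, MCM5, CDC45, GINS1, POLA2, POLE2, PCNA, RFC4, RPA3 and TYMS as lower. Under quantile normalization the split in ATRA was 8 higher and 20 lower, beside 27.4% and 32.6% of all tested genes. Without Cas9 control DMSO replicate 1, 7 were higher and 13 lower in DMSO, beside 3470 and 3190 of all 13256 tested genes. In ATRA the median was -0.04 without HK3-null ATRA replicate 3. Without HK3-null ATRA replicate 2, 5 members were higher and 13 lower in ATRA, beside 3602 and 3685 of all tested genes.

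**Figure D4:**
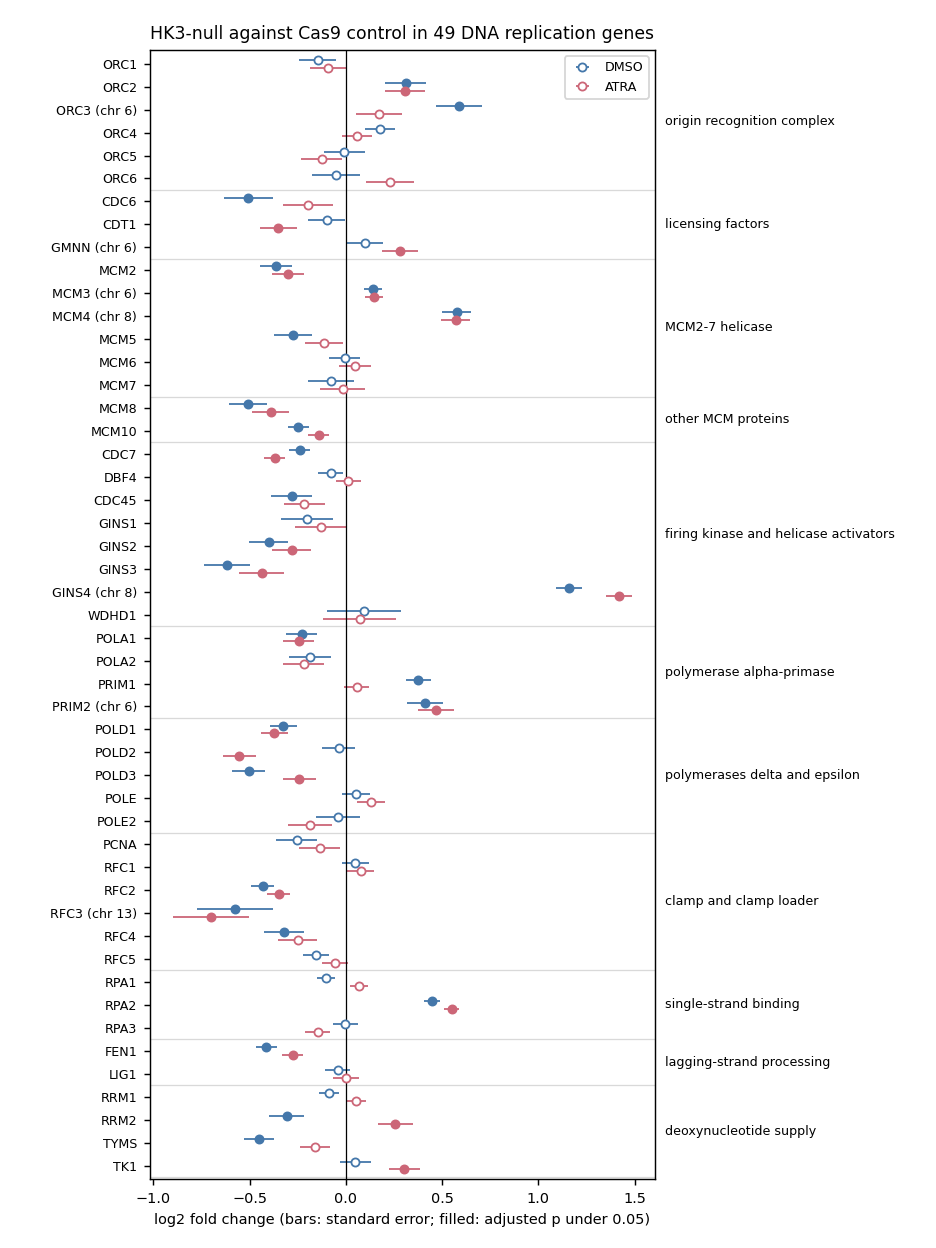
Log2 fold change of HK3-null against Cas9 control (x axis) in DMSO (blue) and ATRA (red) for the 49 members (rows, by role group), with standard errors and filled points where the adjusted p was under 0.05, and the chromosome given for members on 6, 8 and 13. GINS4 lies farthest to the right, at 1.16 and 1.42, and the 2 treatments fall close to each other for most members.

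Chromosome position moved with the genotype difference, as it did for all genes. Over all tested genes of a chromosome, the median log2 difference was 1.11 in DMSO and 1.06 in ATRA on chromosome 8, 0.53 and 0.58 on chromosome 6, -0.58 and -0.57 on chromosome 13, -0.75 and -0.77 on chromosome 5 and -0.94 and -0.98 on chromosome 15. The members on these are ORC3, GMNN, MCM3 and PRIM2 on chromosome 6, GINS4 and MCM4 on 8, and RFC3 on 13, and none lies on 5 or 15. Of the 42 members elsewhere, 3 were higher and 17 lower in DMSO, and 4 higher and 13 lower in ATRA. The shares over all tested genes outside these chromosomes were not computed. With each chromosome's median subtracted from its genes, 3 members were higher and 18 lower in DMSO, and 5 higher and 19 lower in ATRA. Of all 13256 tested genes, 3341 were then higher and 3270 lower in DMSO, and 3603 and 3759 in ATRA. Copy number was not measured here, and its part in these values was not tested.

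GINS4, a subunit of the GINS complex, gave 581, 583 and 599 in Cas9 control DMSO, 508, 487 and 537 in Cas9 control ATRA, 1330, 1336 and 1267 in HK3-null DMSO and 1476, 1268 and 1359 in HK3-null ATRA. Its genotypes were far apart, with 2.23-fold (limma adjusted p = 9.09e-08) and 2.68-fold (adjusted p = 1.92e-08) higher levels in HK3-null cells, and after subtraction of the chromosome's median it did not pass in DMSO and did in ATRA. MCM4, on the same chromosome, gave 10336, 10313 and 9414 in Cas9 control DMSO and 15604, 15589 and 13666 in HK3-null DMSO. In ATRA it gave 9588, 9212 and 8293 against 14368, 13157 and 12694. Every HK3-null library was higher, by 0.58 ± 0.08 and 0.57 ± 0.08 on the log2 scale, and relative to its chromosome MCM4 was lower, at -0.53 and -0.49, and passed in that direction.

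MCM3, on chromosome 6, gave 17579, 17377 and 16856 in Cas9 control DMSO and 18891, 19705 and 18487 in HK3-null DMSO. Its ATRA values were 16338, 16392 and 15506 against 18327, 18040 and 16962. The genotypes did not overlap within a treatment, the differences were 0.14 ± 0.05 in each (limma adjusted p = 0.0235 and 0.0184), and relative to the chromosome they were -0.39 and -0.43 (log2). GMNN, the inhibitor of licensing, gave 2234, 2387 and 1908 in Cas9 control DMSO and 2416, 2282 and 2278 in HK3-null DMSO, which overlap. In ATRA it gave 2100, 1800 and 1655 against 2273, 2245 and 2199, higher by 0.28 ± 0.09, and relative to the chromosome it was at -0.30 and passed as lower.

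PRIM2, the large primase subunit, gave 881, 795 and 855 in Cas9 control DMSO and 1067, 1069 and 1231 in HK3-null DMSO, and 928, 841 and 1052 against 1250, 1230 and 1411 in ATRA. The genotypes did not overlap, and the differences were 0.41 ± 0.09 and 0.47 ± 0.09 (log2, limma adjusted p = 0.00338 and 0.00127). Relative to chromosome 6 they were -0.12 and -0.11 and did not pass. ORC3, with the values given above, was higher in HK3-null cells by 0.59 ± 0.12 in DMSO (adjusted p = 0.00151) and by 0.17 ± 0.12 in ATRA, which did not pass. The median difference over all tested genes of chromosome 6 was 0.53 in DMSO, near that of ORC3, and 0.58 in ATRA, above it. RFC3 was lower by 0.58 ± 0.20 in DMSO (adjusted p = 0.0275) and by 0.70 ± 0.20 in ATRA (adjusted p = 0.00934), and neither passed relative to chromosome 13.

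**Figure D5:**
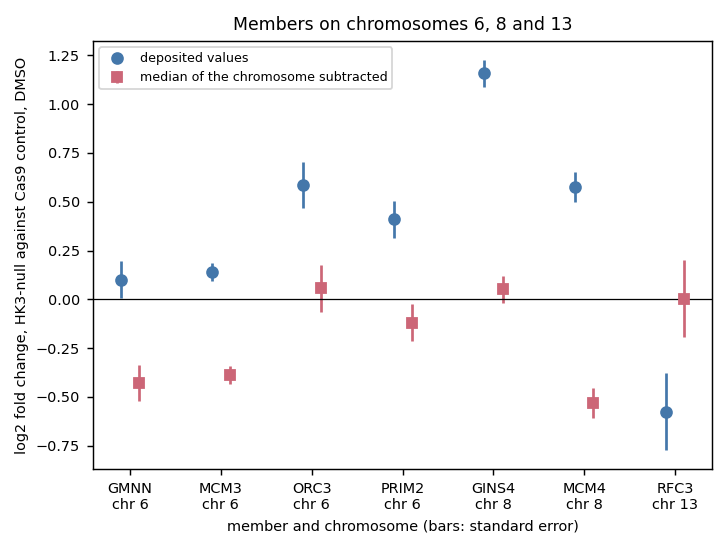
Log2 fold change of HK3-null against Cas9 control in DMSO (y axis) for the 7 members on chromosomes 6, 8 and 13 (x axis), from the deposited values (blue circles) and with the median of the chromosome's genes subtracted (red squares), with standard errors. MCM4 moves from 0.58 to -0.53 and MCM3 from 0.14 to -0.39, while RFC3 moves from -0.58 to 0.00.

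Off these chromosomes, RPA2 was higher in HK3-null cells by 0.45 ± 0.04 in DMSO (limma adjusted p = 3.03e-06) and 0.55 ± 0.04 in ATRA (adjusted p = 5.04e-07). PRIM1 was higher in DMSO (0.38 ± 0.06) and did not pass in ATRA (0.06 ± 0.06). GINS3, another GINS subunit, gave 1208, 1120 and 903 in Cas9 control DMSO and 771, 677 and 648 in HK3-null DMSO, and 1245, 1083 and 1016 against 866, 835 and 762 in ATRA. The HK3-null libraries were lower in each treatment without overlap, by 0.62 ± 0.12 and 0.44 ± 0.12 on the log2 scale (adjusted p = 0.000916 and 0.00725). The GINS complex held subunits that differed in opposite directions, with GINS2 lower by 0.40 ± 0.10 in DMSO and GINS1 at -0.20 ± 0.13, which did not pass.

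MCM8, a helicase of recombinational repair, and MCM10 were both lower in DMSO, by 0.51 ± 0.10 and 0.25 ± 0.05 (log2, limma adjusted p = 0.00102 and 0.00245). Within MCM2-7, MCM2 was lower in both treatments (-0.36 ± 0.08 and -0.30 ± 0.08), and MCM6 and MCM7 did not pass in either. The clamp loader subunit RFC2 was lower by 0.43 ± 0.06 and 0.35 ± 0.06, and the flap nuclease FEN1 by 0.41 ± 0.05 and 0.28 ± 0.05. Among the polymerases, POLD1 was lower in both treatments (-0.33 ± 0.07 and -0.37 ± 0.07), POLD3 was lower in DMSO by 0.51 ± 0.09, and POLD2 was lower in ATRA by 0.55 ± 0.09 with -0.04 ± 0.09 in DMSO. CDC6 and TYMS were lower in DMSO, by 0.51 ± 0.13 and 0.45 ± 0.08, and did not pass in ATRA. CDC7 was lower by 0.24 ± 0.05 and 0.37 ± 0.05, and CDT1, the licensing factor, was lower in ATRA by 0.35 ± 0.10. TK1 was higher in ATRA by 0.30 ± 0.08 and did not pass in DMSO, at 0.05 ± 0.08. RRM2 passed as lower in DMSO (-0.31 ± 0.09) and higher in ATRA (0.26 ± 0.09), the latter not without Cas9 control ATRA replicate 2 or 3 or HK3-null ATRA replicate 1 or 2 (adjusted p up to 0.107), and the former not without Cas9 control DMSO replicate 1 or HK3-null DMSO replicate 3 (adjusted p up to 0.0571).

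Calls that were kept with each library left out were 6 higher and 12 lower in DMSO, and 5 higher and 10 lower in ATRA. The other 8 in DMSO (ORC2, MCM3, MCM5, CDC45, POLA1, RFC3, RFC4, RRM2) and 8 in ATRA (ORC2, GMNN, MCM3, MCM10, GINS2, POLA1, POLD3, RRM2) were lost without some library, with adjusted p up to 0.147 and 0.14, and each of the libraries compared cost at least 2 of the calls in DMSO and at least 4 in ATRA. In all, 12 of the 49 members (GINS1, LIG1, MCM6, MCM7, ORC4, ORC6, PCNA, POLA2, POLE, RFC1, RFC5 and WDHD1) passed in none of the 5 comparisons. With the replicate block 8 of these 12 passed in some comparison, and LIG1, MCM7, RFC1 and WDHD1 did not. The share of all tested genes that passed in none was not computed for either fit, so these counts have no background.

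Other genes of replication, from a list of 44 of which 43 were tested, had 11 higher and 10 lower in ATRA in Cas9 control cells and 14 higher and 8 lower in HK3-null cells. Of all tested genes, 20.3% and 21.3% passed as higher and lower in Cas9 control cells and 24.0% and 25.1% in HK3-null cells. The largest rises were those of SAMHD1, which degrades deoxynucleotides, by 2.34 ± 0.09 and 2.54 ± 0.09 (log2, limma adjusted p = 6.91e-09 and 3.49e-09), of POLD4, the small subunit of polymerase delta, to 2.83-fold and 2.52-fold, and of FAM111A by 1.16 ± 0.14 and 1.46 ± 0.14 (log2). Between genotypes 14 were higher and 11 lower in DMSO, and 17 higher and 7 lower in ATRA, beside 27.9% and 27.1% of all tested genes in DMSO and 29.6% and 29.5% in ATRA. RRM2B, a ribonucleotide reductase subunit on chromosome 8, was higher by 1.27 ± 0.13 and 1.66 ± 0.13, and DUT, the dUTPase on chromosome 15, was lower by 1.19 ± 0.06 and 1.30 ± 0.06. Of 27 regulators of S phase entry, 9 were higher and 10 lower in ATRA in Cas9 control cells, and 11 higher and 6 lower in HK3-null cells. E2F2 rose by 1.31 ± 0.13 in Cas9 control cells, and its mean went from 1161 normalized counts in DMSO to 2478 in ATRA in HK3-null cells. Changes in this list ran from -1.85 to 1.68 (log2) in Cas9 control cells, so that of E2F2 was not the largest. The mean of CDKN2D went from 118 to 387 in Cas9 control and from 425 to 1436 in HK3-null cells. That of E2F5 went from 34.3 to 11 and from 86.3 to 15. Between genotypes 8 were higher and 8 lower in DMSO, and 11 higher and 3 lower in ATRA, where CCNE2, a cyclin E gene on chromosome 8, was higher by 1.64 ± 0.13. Of 25 mitosis genes, 7 were higher and 1 lower in ATRA in Cas9 control cells, and 16 were higher and none lower in HK3-null cells, where the proliferation marker MKI67 rose by 0.75 ± 0.13 (limma adjusted p = 0.000473). In Cas9 control cells the mean of MKI67 went from 9108 normalized counts in DMSO to 12864 in ATRA. Between genotypes 5 were higher and 8 lower in DMSO and 7 higher and 6 lower in ATRA, with CCNB2, on chromosome 15, lower by 1.09 ± 0.07 and 1.05 ± 0.07.

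ATACseq gave open chromatin in 2 libraries per group as fragment density over 8286 regions, and all of these differ at least 1.5-fold between genotypes in ATRA, so a region's presence there is a selection and its values are a description with no test. Regions listed with a member were 6, for 5 members. The region at the start of GINS4, centred at -0.127 kb from it, had a signal of 153.4 and 229.6 in Cas9 control DMSO, 209.2 and 150.3 in Cas9 control ATRA, 361 and 358.1 in HK3-null DMSO and 316 and 404.9 in HK3-null ATRA. A further GINS4 region lay 13.6 kb past the start and was also higher in HK3-null libraries, at 41.5 to 64.3 against 21.5 to 38.8. Both GINS4 regions are also listed with LOC102723729. The region listed with RFC3, 113 kb past its start, was lower in HK3-null libraries, at 4.83 to 9.92 against 23.1 to 41.2. These lie on chromosomes 8 and 13. Their direction is that of the RNA of both genes, and also that of the median RNA difference over all tested genes of each chromosome. A link between these regions and the RNA of either gene was not tested.

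For MCM2 the region was centred at -6.21 kb from the start and is also listed with TPRA1 and MIR7976. Its signal was 78.8 to 114.6 in Cas9 control and 200.4 to 256.9 in HK3-null libraries, while MCM2 RNA was lower in HK3-null cells. The LIG1 region, at -5.43 kb from the start and also listed with C19orf68, had 18.3 to 53.5 against 77.9 to 91.5, and LIG1 RNA did not pass. The region listed with MCM7 is also listed with ZNF3 and COPS6 and lies 18.7 kb past the MCM7 start, beyond the gene's far end. It had 7.43 to 14.1 in Cas9 control and 107.6 to 207.6 in HK3-null libraries, and MCM7 RNA did not pass in any comparison.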

How the data were processed

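RNAseq was analysed in 12 libraries and ATACseq in 8. The authors mapped RNA reads to GRCh38, and their methods describe RPKM, but the deposited log2 values are each the log2 of a whole, scaled count, with 0 written as the log2 of 0.001 and no scaling by gene length visible. Aligner and counting program: not given in the sources used here. The authors name DESeq2 for normalized counts and differential expression and MACS2 for ATACseq regions. Rows without a gene name (330, at most 0.00926% of normalized counts) were left out. Depth was estimated from regular gaps among the whole numbers. The deposited ATACseq signal is a fragment density over merged MACS2 regions, after the authors reduced all libraries to 1 number of fragments, and its depth is unknown.

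The log2 values were fitted in R 4.3.3 with limma 3.58.1 (lmFit, eBayes with a trend), with 1 mean per group over all 12 libraries. Genes whose mean log2 value in some group was over 3 were tested, and p-values were adjusted by Benjamini-Hochberg over 13256 genes. A call is an adjusted p under 0.05. The script was tested on simulated data. Replicate numbers were taken to pair the libraries, since the 18 pairs of libraries with 1 number correlated at 0.178 to 0.631 in their deviations from group means (10667 genes with a mean of at least 50 counts). Pairs with different numbers correlated at -0.643 to 0.286, which overlaps that range, so the pairing is an assumption. The study's methods set no block, so the main fit has none. Leaving out each library, quantile normalization, other filters, a block, chromosome medians and fold thresholds were alternatives. The members, lists and tests were chosen with earlier results of these data known. Any member may be named. Values in every library are given for the 4 largest called changes per comparison, the largest ATRA change per role group, and members on chromosomes 5, 6, 8, 13 and 15. Of other lists at most 3 called genes per comparison are named. Figures were drawn with Python.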

Additional observations from a re-analysis of the deposited data

Results flagged for a closer look

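The results given here are those in which the ATRA change differed between genotypes by the interaction test (limma, adjusted p under 0.05), as HK3-null change minus Cas9 control change on the log2 scale. Among the members these are RRM2 at 0.56 and POLD2 at -0.52. RRM2 rose in HK3-null cells and passed in Cas9 control cells in neither direction, and POLD2 fell in both. Among other replication genes, UHRF1 differed by 0.51, DONSON by 0.37, RNASEH2C by 0.34 and CDCA7 by -0.51. Among regulators of S phase entry, TFDP2 differed by -0.76, CDKN2C by 0.37 and CDK2 by 0.28. Of the mitosis genes, FOXM1 differed by 0.62, and the targeted gene HK3 by -1.90, with more HK3 counts in HK3-null than in Cas9 control DMSO libraries. Groups of 3 libraries were not tested for single outlying libraries.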

How the results depend on the processing

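Replicate numbers as a block raised the members called to 25 (ATRA in Cas9 control), 31 (ATRA in HK3-null), 36 (genotype in ATRA) and 10 (interaction), and gave 34 for genotype in DMSO against 26, while the share of all tested genes called rose to 55.9%, 61.3%, 70.2%, 21.9% and 66.7%. The block kept all 77 calls and directions of members over the 5 comparisons. A fold change of at least 1.5 left 1, 3, 3, 2 and 0 members in ATRA in Cas9 control, ATRA in HK3-null, genotype in DMSO, genotype in ATRA and the interaction, with an adjusted or an unadjusted p under 0.05. The 0 stands beside 2 in limma without a fold threshold. Quantile normalization gave 5 in the interaction, beside 11.8% of all tested genes, against 9.12% in the main fit. The counts stayed within 1.5 times in the other alternatives, apart from single libraries left out. Leaving out each library in turn gave 9 to 12, 10 to 19, 20 to 28, 18 to 22 and 1 to 3 members in that order. Of all 13256 tested genes, these fits called 4619 to 5815, 5701 to 6622, 6483 to 7531, 7161 to 7843 and 890 to 1207.

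With chromosome medians subtracted, some called differences between genotypes turned sign. These were MCM3 (-0.39 in DMSO, -0.43 in ATRA), MCM4 (-0.53 and -0.49), PRIM2 (-0.12 and -0.11), GMNN in ATRA (-0.30) and RFC3 in DMSO (0.0021), all log2. Of 1538 recomputed values of the 77 calls, 1406 kept direction and threshold, 124 lost the threshold and 8 turned sign. Of 104 recomputed medians over the members, 10 moved by more than the spread between replicates, 0.037 on the log2 scale. The 3 libraries per group limit the tests, and causes of these shifts were not tested.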
